A study of Homo sapiens with 8 samples.

Results

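Binding of Flag-tagged ARID1A at 40 genes that drive the cell cycle was described from ChIP-seq peak lists of Huh7 cells, a human hepatocellular carcinoma line. The 40 genes were taken as a named list out of 20033 protein-coding genes of the RefSeq annotation (GRCh38.p14). They comprise 17 genes of the G1/S side (D- and E-type cyclins and their kinases, RB1, the E2F factors, replication and nucleotide synthesis) and 23 genes of the G2/M side (A- and B-type cyclins, CDK1 and its regulators, mitotic kinases, the spindle checkpoint, kinetochore and motor proteins). A gene counted as having a peak in a library when any base of a listed peak lay in the window from 10 kb before the gene to 10 kb after it. All cells carried an ARID1A knockout and a stable lentiviral transgene that overexpressed a Flag-tagged ARID1A, and the antibody was against Flag. The V2084D_shSTUB1 group (2 libraries) expressed the V2084D mutant and had STUB1 knocked down, the V2084D group (2 libraries) expressed the mutant with no STUB1 knockdown named in its genotype, and the WT group (2 libraries) expressed the wild-type protein. Peak names in the lists carried the tag sh183 in the V2084D_shSTUB1 group and shEV in the V2084D and WT groups, which the labels do not explain. The measured protein was thus a tagged, overexpressed one in every library, and 2 WT input libraries were not analysed here. The lists hold no expression values, so the liver identity of the cells, the knockout and the knockdown could not be checked in them.

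ARID1A belongs to SWI/SNF, a complex that uses ATP to move or evict nucleosomes at promoters and enhancers. STUB1 is a ubiquitin ligase that works with chaperones and marks client proteins for degradation. In G1, D-type cyclins with CDK4 or CDK6 and E-type cyclins with CDK2 phosphorylate RB1, which releases E2F factors to switch on the genes of DNA replication. Later in the cycle, the genes of G2 and mitosis are switched on together, and their promoters are known for CCAAT boxes and a short element called the cell cycle genes homology region (CHR).

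The lists held 8904 and 6663 peaks in the V2084D_shSTUB1 libraries, 6000 and 12384 in the V2084D libraries, and 27587 and 26515 in the WT libraries. The files do not give read depth, and depth and ChIP yield, besides binding, set how long a list is. Each count of members is therefore set beside the same count over all protein-coding genes of the same library. The labels do not state whether both libraries of a group were grown as separate cultures, so a p-value here reflects spread that may be technical alone. With 2 libraries against 2 the exact permutation test has 6 arrangements and cannot give a p below 0.333.

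The promoters of 6 members are shown because they stand for the patterns described below. CCNB1 and CCNB2 had listed peaks in the WT libraries alone, PLK1 in the WT libraries and 1 V2084D_shSTUB1 library, and CDK1 in the WT and V2084D_shSTUB1 libraries. CDC20 and E2F3 had listed peaks in all 6 libraries. Each line is the 250 bases before a gene start, 5′ to 3′ in the direction of the gene, from RefSeq (GRCh38.p14, all 6 on the plus strand). The windows are chr5:69166900-69167149 for CCNB1, chr15:59104896-59105145 for CCNB2, chr16:23678639-23678888 for PLK1, chr10:60778228-60778477 for CDK1, chr1:43358731-43358980 for CDC20 and chr6:20401629-20401878 for E2F3. Capitals mark matches on either strand to 3 motifs. The CHR was searched as TTTGAA and in the variant form TTCGAA. The E2F site was searched in 4 forms, the first being TTGGCGC, the second being TTCGCGC, the third being TTCCCGC and the fourth being TTGCCGC. The CCAAT box was searched by its name's letters, and no 2 matches overlap in the 6 windows.
CCNB1: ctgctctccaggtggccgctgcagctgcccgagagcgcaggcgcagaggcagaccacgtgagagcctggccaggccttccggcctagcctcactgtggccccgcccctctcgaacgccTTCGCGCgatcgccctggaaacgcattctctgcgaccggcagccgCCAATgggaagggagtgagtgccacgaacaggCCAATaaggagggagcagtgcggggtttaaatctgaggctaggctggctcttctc
CCNB2: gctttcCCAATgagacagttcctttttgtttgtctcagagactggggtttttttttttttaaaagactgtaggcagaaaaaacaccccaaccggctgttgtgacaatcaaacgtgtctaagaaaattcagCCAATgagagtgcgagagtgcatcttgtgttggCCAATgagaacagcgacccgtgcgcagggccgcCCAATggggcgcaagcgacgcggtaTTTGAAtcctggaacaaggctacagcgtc
PLK1: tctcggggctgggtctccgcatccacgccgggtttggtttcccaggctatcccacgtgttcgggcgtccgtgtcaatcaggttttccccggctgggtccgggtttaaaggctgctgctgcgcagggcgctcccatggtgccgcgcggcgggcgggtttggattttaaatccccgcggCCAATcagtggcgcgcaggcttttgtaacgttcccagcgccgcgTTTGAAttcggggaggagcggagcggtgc
CDK1: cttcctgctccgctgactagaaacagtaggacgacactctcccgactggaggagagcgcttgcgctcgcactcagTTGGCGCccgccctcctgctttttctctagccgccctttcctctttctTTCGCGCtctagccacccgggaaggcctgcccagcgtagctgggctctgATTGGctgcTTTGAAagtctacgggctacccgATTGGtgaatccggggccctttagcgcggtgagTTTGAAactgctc
CDC20: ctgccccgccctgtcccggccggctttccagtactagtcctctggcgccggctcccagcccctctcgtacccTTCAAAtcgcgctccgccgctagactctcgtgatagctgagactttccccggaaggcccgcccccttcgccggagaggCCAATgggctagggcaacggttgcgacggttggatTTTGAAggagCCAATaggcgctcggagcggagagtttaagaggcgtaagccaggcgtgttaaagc
E2F3: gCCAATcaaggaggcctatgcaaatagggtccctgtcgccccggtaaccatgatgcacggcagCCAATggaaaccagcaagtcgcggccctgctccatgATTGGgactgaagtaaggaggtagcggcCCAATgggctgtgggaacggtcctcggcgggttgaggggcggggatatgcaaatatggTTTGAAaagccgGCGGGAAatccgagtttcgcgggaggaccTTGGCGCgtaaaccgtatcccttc

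These letters were searched in the same way in all 22196 listed windows of protein-coding genes, of which the members hold 46 at 32 genes. A CHR match lay before 2 of 13 G1/S genes and 11 of 19 G2/M genes (57.9%), against 15.6% of 15840 protein-coding genes. For CCAAT the counts were 7 of 13 G1/S genes (53.8%) and 17 of 19 G2/M genes (89.5%), against 40.2% of all genes. E2F matches lay before 8 G1/S genes (61.5%) and 6 G2/M genes (31.6%), against 17.5% of all genes. Among the 13 G1/S genes, RB1 counts as without any match, but its only listed window lies far inside the gene. CHR and CCAAT stood in the same window in 11 of 27 G2/M windows (40.7%), against 4.47% of all windows. Of the windows printed, those of CCNB2 and PLK1 hold 1 CHR match, those of CDK1 and CDC20 hold 2, and that of CCNB1 holds none. The E2F3 window holds matches to all 3 motifs. A match describes the letters and not a bound site, and windows with the same motifs are found among genes with and without peaks of the mutant protein.

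Nearly every member carried wild-type ARID1A, fewer carried the mutant, and the number with a mutant peak was higher in both STUB1-knockdown libraries than in either library without knockdown. A peak was listed at 22 and 18 of the 40 members in the V2084D_shSTUB1 libraries, at 10 and 16 in the V2084D libraries, and at 38 in each WT library. Over all protein-coding genes, the share with a peak was 40% and 31.4% in the V2084D_shSTUB1 libraries, 28.8% and 46% in the V2084D libraries, and 71.9% and 71.2% in the WT libraries. The 3 groups did not overlap for the members, whereas for all genes the V2084D libraries lay on both sides of the V2084D_shSTUB1 libraries. On average 13 ± 4.24 members had a peak in V2084D libraries and 38 ± 0 in WT libraries (SD, n = 2 each), a difference of -25 members (pairs of libraries from -28 to -22; two-sided exact permutation p = 0.333, Benjamini-Hochberg adjusted over the 3 group pairs p = 0.333). V2084D_shSTUB1 libraries averaged 20 ± 2.83 members, which was 7 more than V2084D libraries (pairs from 2 to 12) and 18 fewer than WT libraries (a difference of -18, pairs from -20 to -16). The exact permutation p and its adjusted value were 0.333 for both differences, the smallest the design allows. With only peaks of −log10 q of at least 5, the difference between V2084D_shSTUB1 and V2084D libraries was -1 member, and with only peaks of at least 5-fold enrichment it was -0.5. With the 6000 strongest peaks of every list, members with a peak numbered 15 and 16 in V2084D_shSTUB1 libraries, 10 and 11 in V2084D libraries, and 19 and 20 in WT libraries. The shares of all genes at that length were 30.3% and 29.03% in V2084D_shSTUB1 libraries, 28.8% and 29.4% in V2084D libraries, and 33.4% and 33.2% in WT libraries, against 37.5% and 40% of members, 25% and 27.5% of members, and 47.5% and 50% of members in the same libraries.

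**Figure D1:**
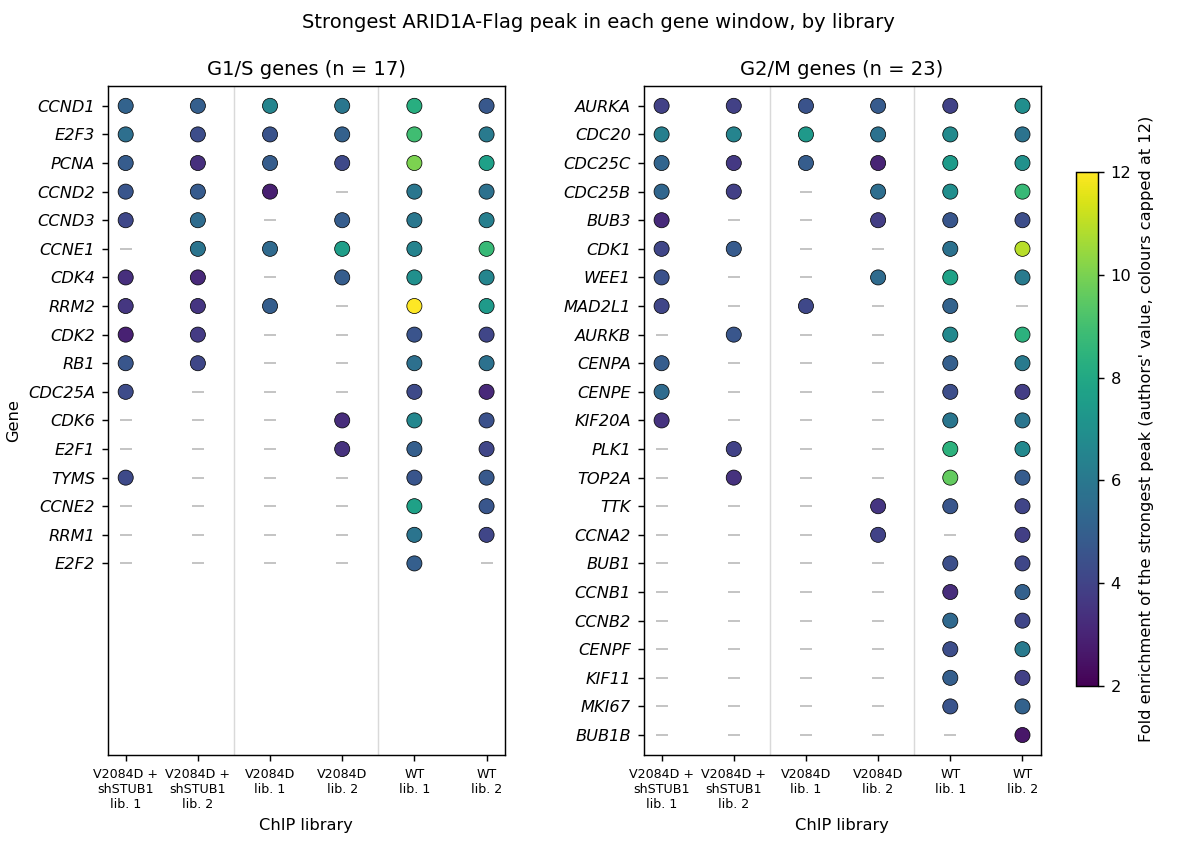
The fold enrichment of the strongest peak (lowest q value) in the window of each gene, as the authors' peak caller gave it, with libraries in columns, genes in rows and a dash where no peak was listed. Colours are capped at 12, which the WT library 1 peak of RRM2 exceeds (13.3). The right panel shows 6 G2/M genes with peaks in both WT libraries and dashes in all 4 columns of the mutant protein.

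Set against all genes, the members were above the background in the V2084D_shSTUB1 and WT libraries and near or slightly below it in the V2084D libraries, with all listed peaks counted. The share of members with a peak minus that of all protein-coding genes was 15.0 and 13.6 percentage points in the V2084D_shSTUB1 libraries. It was -3.85 and -5.97 points in the V2084D libraries and 23.1 and 23.8 points in the WT libraries. The V2084D_shSTUB1 mean of 14.3 ± 0.993 points was 19.2 points above the V2084D mean of -4.91 ± 1.5 (SD, n = 2 each; pairs from 17.5 to 21.0; two-sided exact permutation p = 0.333, adjusted p = 0.333). The V2084D mean differed from the WT mean of 23.5 ± 0.452 by -28.4 points, and the V2084D_shSTUB1 mean differed from it by -9.14 points, each with the same exact permutation p. This measure was chosen after the data were seen, and it depended on the peaks counted. Its difference between V2084D_shSTUB1 and V2084D was -5.20 points at a −log10 q of at least 5 and -2.58 at a fold of at least 5. At the q limit V2084D_shSTUB1 libraries differed from WT by -27.5 points and V2084D libraries by -22.3, and at the fold limit by -15.3 and -12.7, so that V2084D_shSTUB1 then lay farther from WT than V2084D did. With windows of 1 kb, V2084D_shSTUB1 differed from WT by -16.2 points. At the q limit 15% and 2.5% of members had a peak in the V2084D_shSTUB1 libraries, against 17.8% and 9.21% of all genes, and 10% and 12.5% in the V2084D libraries, against 7.06% and 14.6%.

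With all listed peaks and the 10 kb window, nearly all genes on both sides of the cell cycle had a wild-type peak, while the mutant was listed at a larger share of G1/S genes than of G2/M genes in all 4 libraries. G1/S genes had a peak at 11 and 10 of 17 in the V2084D_shSTUB1 libraries, at 6 and 8 in the V2084D libraries, and at 17 and 16 in the WT libraries. G2/M genes had a peak at 11 and 8 of 23 in the V2084D_shSTUB1 libraries, at 4 and 8 in the V2084D libraries, and at 21 and 22 in the WT libraries. In points above or below all genes, G2/M genes stood at 7.85 and 3.40 in the V2084D_shSTUB1 libraries, at -11.5 and -11.2 in the V2084D libraries, and at 19.4 and 24.4 in the WT libraries. G1/S genes stood above all genes in every library, by 24.7 and 27.4 points in the V2084D_shSTUB1 libraries, by 6.45 and 1.09 in the V2084D libraries, and by 28.1 and 22.9 in the WT libraries. With all listed peaks, the G2/M members were thus under the background in the V2084D libraries alone, which did not extend to the other cell cycle genes described below. With lists of equal length the G2/M members were again under it in the V2084D libraries (17.4% and 21.7%, against 28.8% and 29.4% of all genes). They were near it in the V2084D_shSTUB1 libraries (30.4% in each, against 30.3% and 29.03%). With stronger peaks alone this did not hold. At a −log10 q of at least 5 the G2/M shares were 17.4% and 4.35% in the V2084D_shSTUB1 libraries, against 17.8% and 9.21% of all genes, and 8.70% and 13.0% in the V2084D libraries, against 7.06% and 14.6%. At a fold of at least 5 they were 17.4% and 4.35% in the V2084D_shSTUB1 libraries, against 17.8% and 11.0%, and 4.35% and 17.4% in the V2084D libraries, against 10.7% and 15.4%.

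With these settings, the gap between the classes was larger with the mutant protein than with the wild type, but no difference in it could pass 0.05 with 2 libraries a group. The G1/S share minus the G2/M share averaged 20.5 ± 5.06 points in V2084D_shSTUB1 libraries, 15.1 ± 3.98 in V2084D libraries and 3.58 ± 7.23 in WT libraries (SD, n = 2 each). V2084D minus WT was 11.5 points (pairs from 3.58 to 19.4; two-sided exact permutation p = 0.333, adjusted p = 0.5), and V2084D_shSTUB1 minus WT was 16.9 points (8.18 to 25.6 over the pairs, with the same exact permutation p and adjusted p). V2084D_shSTUB1 minus V2084D was 5.37 points, with pairs on both sides of 0 (from -1.02 to 11.8; exact permutation p = 0.667, adjusted p = 0.667). G1/S genes are longer, with a median of 26.0 kb against 19.2 kb for G2/M genes, and 24.1 kb for all genes, so their windows offer more room for a peak, and the part of length in the gap was not tested. With windows reaching only 1 kb beyond the gene, V2084D_shSTUB1 minus V2084D became -9.34 points and V2084D_shSTUB1 minus WT became -0.767 points. The order of the classes also depended on the setting. At a −log10 q of at least 5, G1/S shares were 11.8% and 0% in the V2084D_shSTUB1 libraries, 11.8% in each V2084D library, and 88.2% and 70.6% in the WT libraries. The G2/M shares at that limit were 17.4% and 4.35% in the V2084D_shSTUB1 libraries, 8.70% and 13.0% in the V2084D libraries, and 69.6% and 56.5% in the WT libraries. G1/S genes were then lower in 3 of the 4 libraries of the mutant protein and higher in both WT libraries, and all 3 differences of the gap were negative (-5.88 for V2084D_shSTUB1 minus V2084D, -15.5 for V2084D minus WT and -21.4 for V2084D_shSTUB1 minus WT).

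**Figure D2:**
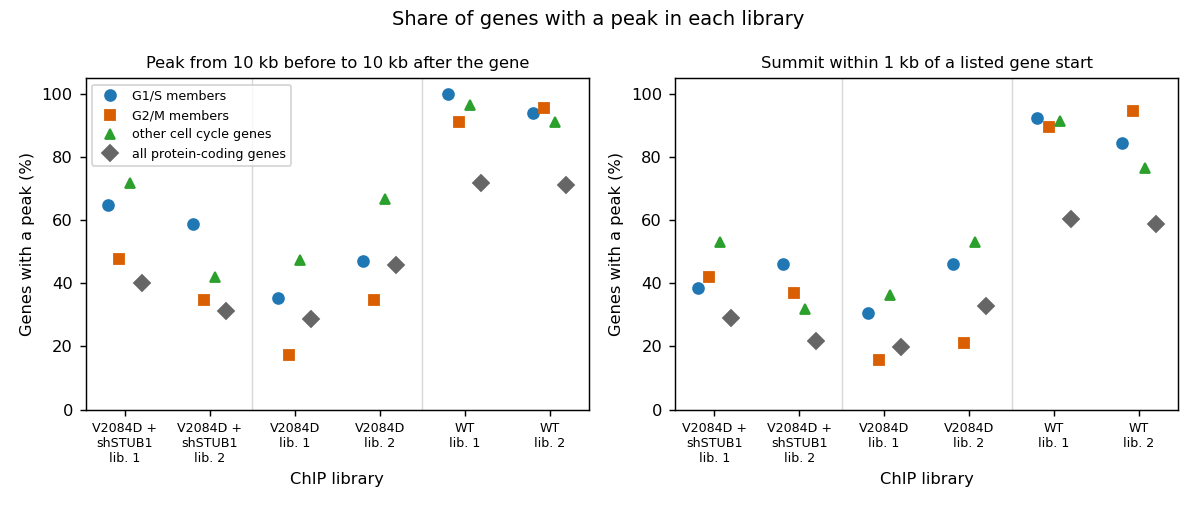
Percent of genes with a peak in each library (vertical axes) for G1/S members, G2/M members, other cell cycle genes and all protein-coding genes, with 1 point per library and class. The left panel uses the window from 10 kb before to 10 kb after the gene, and the right panel summits within 1 kb of a listed gene start. G2/M members lie under all genes in both V2084D libraries in both panels, and above them in the other 4 libraries.

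At the gene starts themselves, G2/M members again stood above all genes in the V2084D_shSTUB1 and WT libraries and below them in the V2084D libraries. RefSeq starts were listed for 32 members, 13 of the G1/S and 19 of the G2/M side, and a start peak was one with its summit within 1 kb of such a start. The start listed for RB1 lies far inside the gene, away from its peaks, so RB1 counts here as without a start peak. G2/M genes had a start peak at 8 and 7 of 19 in the V2084D_shSTUB1 libraries, at 3 and 4 in the V2084D libraries, and at 17 and 18 in the WT libraries. G1/S genes had one at 5 and 6 of 13 in the V2084D_shSTUB1 libraries, at 4 and 6 in the V2084D libraries, and at 12 and 11 in the WT libraries. In V2084D_shSTUB1 library 1 the order of the classes was turned, with 38.5% of G1/S and 42.1% of G2/M genes. The G2/M shares were 42.1% and 36.8% in the V2084D_shSTUB1 libraries, against 29% and 21.6% of all 15842 protein-coding genes with a start. In the V2084D libraries the G2/M shares were 15.8% and 21.1%, against 20% and 32.8% of all genes. In the WT libraries they were 89.5% and 94.7%, against 60.3% and 58.8% of all genes.

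Over both classes, 13 of 32 members had a start peak in each V2084D_shSTUB1 library, 7 and 10 in the V2084D libraries, and 29 in each WT library. The mean was 13 ± 0 in V2084D_shSTUB1 libraries and 8.5 ± 2.12 in V2084D libraries, a difference of 4.5 members (SD, n = 2 each; pairs from 3 to 6; two-sided exact permutation p = 0.333, adjusted p = 0.333). V2084D libraries had 20.5 fewer than WT libraries (a difference of -20.5, pairs from -22 to -19) and V2084D_shSTUB1 libraries 16 fewer (a difference of -16 in every pair), with the same exact permutation p. The difference between V2084D_shSTUB1 and V2084D libraries was 0.5 members at a −log10 q of at least 5, 0.5 at a fold of at least 5 and 2 with lists of equal length. A start peak in both WT libraries was listed at 27 of the 32 members, against 54.4% of all genes with a start. Of the 27, 17 had none in either V2084D library (63.0%), against 37.2% of 8616 such genes in all. Those 17 were 4 of 11 G1/S genes and 13 of 16 G2/M genes. No V2084D_shSTUB1 start peak was listed for 9 of the 27 (33.3%), against 41.2% of all such genes. The share without a mutant start peak was thus above the background in the V2084D group and near or below it in the V2084D_shSTUB1 group.

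**Figure D3:**
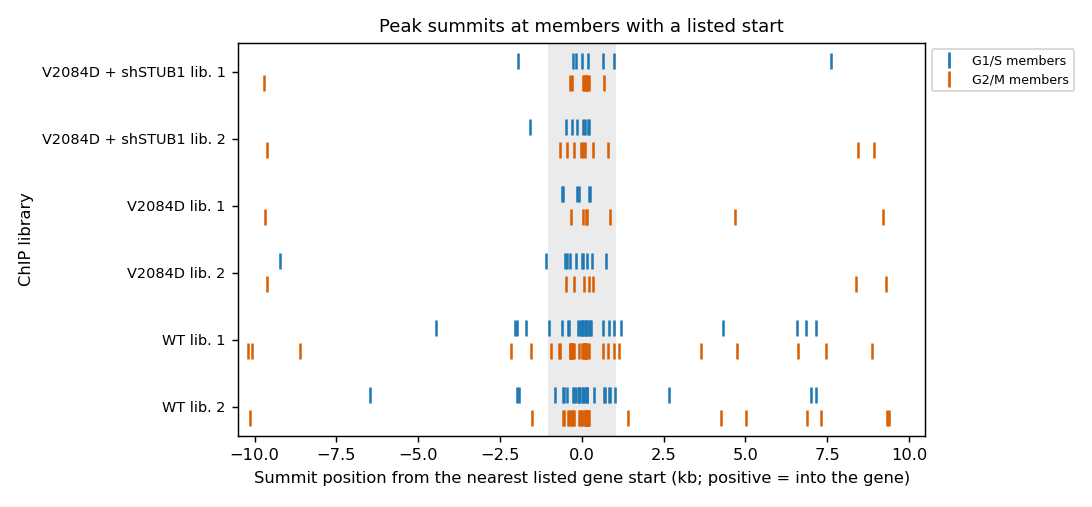
Distance of peak summits from the nearest listed gene start in kb (horizontal axis, positive into the gene) for the 32 members with a listed start, by library, with 1 mark per summit and the band of 1 kb on either side shaded. Of 217 summits, 23 lie beyond the plotted range. Summits gather at the start in every library, and the V2084D rows hold the fewest G2/M marks in the band.

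Most member peaks of the mutant protein overlapped wild-type ones, as did most of its peaks at all genes. Of the 27 window peaks in each V2084D_shSTUB1 library, 25 (92.6%) overlapped a WT region, defined as a place where peaks of both WT libraries overlapped by at least 1 bp. In the V2084D libraries 14 of 17 peaks (82.4%) and 23 of 28 (82.1%) did so. Over the windows of all protein-coding genes, the share was 84.1% and 86.5% in the V2084D_shSTUB1 libraries and 85.0% and 73.1% in the V2084D libraries. Summits within 1 kb of a listed start made up 76.2% and 71.4% of those with a listed start in the V2084D_shSTUB1 libraries, 78.6% and 73.7% in the V2084D libraries, and 60.3% and 62.3% in the WT libraries. For all genes these shares were 52.1% and 52.4% in the V2084D_shSTUB1 libraries, 53.9% and 47.1% in the V2084D libraries, and 43.1% and 43.5% in the WT libraries, each below the members' share in the same library.

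A peak in both WT libraries was found at 36 of the 40 members (90%), against 66.7% of all protein-coding genes. The 36 were 16 of 17 G1/S and 20 of 23 G2/M genes. No peak in either V2084D library was listed at 19 of the 36 (52.8%), against 28.7% of all genes with a peak in both WT libraries. On the G1/S side these were 6 of 16 (37.5%): CCNE2, CDK2, CDC25A, RB1, RRM1 and TYMS. On the G2/M side they were 13 of 20 (65%): CCNB1, CCNB2, CDK1, PLK1, AURKB, BUB1, CENPA, CENPE, CENPF, KIF11, KIF20A, MKI67 and TOP2A. With lists of equal length the count was 4 of 13 (30.8%), against 17.8% of all genes, so the members' share stayed above that of all genes with fewer peaks in play. No peak in either V2084D_shSTUB1 library was listed at 11 of the 36 (30.6%), against 33.7% of all genes, a share near the background. Without V2084D library 2 the number with no V2084D peak was 27.

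**Figure D4:**
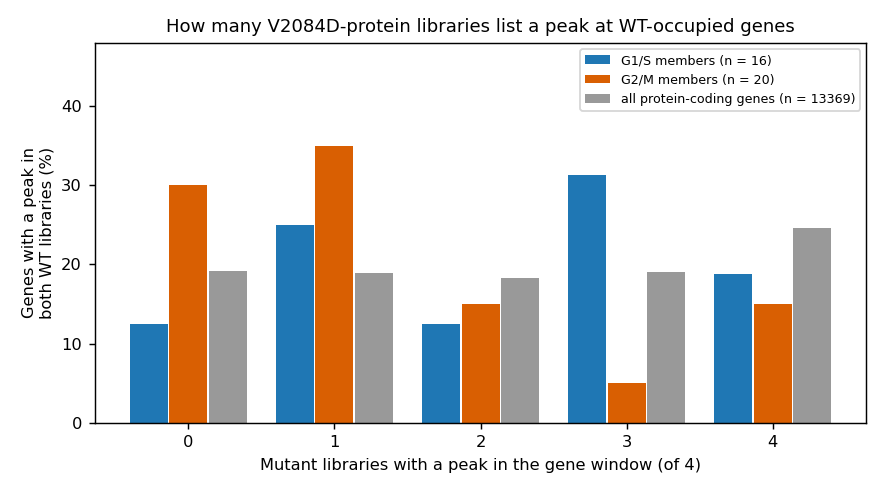
Percent of genes with a peak in both WT libraries (vertical axis) that had a window peak in 0, 1, 2, 3 or 4 of the 4 libraries of the mutant protein (horizontal axis), for 16 G1/S members, 20 G2/M members and 13369 protein-coding genes. Of the G2/M members, 30% had a peak in none and 35% in 1, while all genes were spread at 18.2% to 24.6% per bar.

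Wild-type peaks with no mutant counterpart in any of the 4 libraries were listed at 8 members (22.2% of 36, against 19.2% of all genes), 2 of the G1/S and 6 of the G2/M side. That share is near the background. Of the 27 members with a start peak in both WT libraries, 7 had none in any mutant library (25.9%, against 25.6% of all such genes). CCNB1 and CCNB2, the B-type cyclins that activate CDK1 at entry to mitosis, were both among the 8. CCNB1 had a fold enrichment of 3.25 and 5.06 in the WT libraries, at chr5:69167034-69167859, with the stronger summit 128 bp from the gene start. CCNB2 had 5.37 and 4.08 in the WT libraries, at chr15:59104682-59105595, 309 bp from its start. These fold enrichments are the authors' values for each library's strongest peak by q value, and they rank peaks within a list and do not compare lists. Both WT regions overlap the promoter windows printed above.

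The other G2/M genes of this kind were BUB1, a spindle checkpoint kinase, CENPF, a protein of the outer kinetochore, KIF11, the motor that separates the spindle poles, and MKI67, the Ki-67 proliferation marker that coats mitotic chromosomes. BUB1 had a fold of 4.39 and 4.12 in the WT libraries, and CENPF had 4.35 and 6.09. KIF11 had 4.98 and 3.92 at its start, and MKI67 had 4.61 and 5.10. At all 4, the mean of both WT values was below 5.31, the median over the members' WT regions. Each of these regions had its stronger summit between 75 bp (CENPF) and 238 bp (MKI67) from a listed start. On the G1/S side the pair was CCNE2, an E-type cyclin, and RRM1, the large subunit of ribonucleotide reductase. CCNE2 had a WT fold of 7.72 and 4.68 in a region that also lies within 1 kb of NDUFAF6, and RRM1 had 5.86 and 4.09 with the stronger summit 244 bp from its start.

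Peaks of the mutant protein in all 4 libraries were listed at 6 members (16.7% of 36, against 24.6% of all genes): CCND1, E2F3, PCNA, CDC25C, AURKA and CDC20. CCND1, the cyclin D1 that starts passage through G1, had a fold of 5.15 and 4.99 in the V2084D_shSTUB1 libraries, 6.56 and 5.92 in the V2084D libraries, and 8.28 and 4.70 in the WT libraries. E2F3, an activating E2F factor, had 5.60 and 4.34 in the V2084D_shSTUB1 libraries, 4.55 and 5.08 in the V2084D libraries, and 8.95 and 6.10 in the WT libraries. PCNA, the sliding clamp of DNA polymerases, had 4.89 and 3.34 in the V2084D_shSTUB1 libraries, 4.91 and 4.20 in the V2084D libraries, and 10.02 and 7.66 in the WT libraries. At all 3 genes several regions were involved, so that the strongest peak of each library did not always stand at the same place. At PCNA the V2084D library 1 peak lay at chr20:5126554-5126852, while the other 5 values belong to a WT region at chr20:5119050-5120170 in which V2084D library 1 listed no peak.

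Of the G2/M genes with peaks in all 6 libraries, CDC20 activates the ligase that triggers anaphase. At its start (chr1:43358278-43359482) it had a fold of 6.26 and 3.57 in the V2084D_shSTUB1 libraries, 4.43 and 5.06 in the V2084D libraries, and 6.74 and 5.38 in the WT libraries. CDC20 alone among the members lies between 29 and 56 Mb on chromosome 1. That stretch contained 5.90% and 6.84% of V2084D_shSTUB1 peaks, 7.35% and 7.11% of V2084D peaks, and 1.99% and 2.04% of WT peaks. The part of that stretch in the CDC20 result was not tested.

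CDC25C, a phosphatase that activates CDK1, had 5.24 and 3.67 in the V2084D_shSTUB1 libraries, 4.90 and 3.01 in the V2084D libraries, and 7.47 and 7.04 in the WT libraries. AURKA, a kinase of spindle assembly, had 3.91 and 3.95 in the V2084D_shSTUB1 libraries, 4.56 and 4.85 in the V2084D libraries, and 3.98 and 6.90 in the WT libraries. The CDC25C region also lies within 1 kb of FAM53C and the AURKA region within 1 kb of CSTF1, so these peaks cannot be given to 1 gene alone.

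CDK1, CDK2 and RB1 had WT peaks in both libraries, no listed V2084D peak and a peak in both V2084D_shSTUB1 libraries, which is 3 of 36 (8.33%), against 2.11% of all genes. CDK1, the kinase that drives mitosis, had a fold of 4.09 and 4.82 in the V2084D_shSTUB1 libraries and 5.75 and 10.9 in the WT libraries. All 4 peaks lay in 1 region, chr10:60777999-60779042, and the V2084D_shSTUB1 summits were 86 and 101 bp into the gene from the nearest start. RB1, the pocket protein that holds E2F in check, had 4.67 and 4.12 in the V2084D_shSTUB1 libraries and 5.64 and 5.74 in the WT libraries, at chr13:48303327-48304509, with the stronger WT summit 231 bp from an annotated end of the gene.

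CDK2, the partner of cyclins E and A, had 2.94 and 3.72 in the V2084D_shSTUB1 libraries and 4.58 in WT library 1. These peaks all overlap the WT region at chr12:55973724-55974472. The V2084D_shSTUB1 peaks, at chr12:55974222-55974584 in library 1 and chr12:55973441-55973949 in library 2, do not overlap each other. The summit in V2084D_shSTUB1 library 2 lies outside that WT region. In WT library 2 the peak there had a fold of 4.17, and the strongest peak by q value lay at the other end of the gene (4.09). The region with the V2084D_shSTUB1 peaks has its WT summit more than 1 kb beyond CDK2 and within 1 kb of RAB5B, and the WT region at the other end, also within 1 kb of PMEL, had no peak of the mutant protein. The number with this pattern depended on single libraries, at 6 without V2084D_shSTUB1 library 1, 8 without V2084D_shSTUB1 library 2, 5 without V2084D library 1 and 6 without V2084D library 2. It was 0 at a −log10 q of at least 5, at a fold of at least 5 and with lists of equal length. Listed peaks in neither V2084D_shSTUB1 library but in each V2084D and WT library were found at 0 members, against 2.91% of all genes.

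The remaining members stood between these patterns. A peak in 1 library of the mutant protein was listed at 11 members. Of these, CDC25A, TYMS, CENPA, CENPE and KIF20A had it in V2084D_shSTUB1 library 1, and PLK1, AURKB and TOP2A in V2084D_shSTUB1 library 2. CDK6, E2F1 and TTK had it in V2084D library 2. TOP2A, the DNA topoisomerase that untangles chromosomes, and PLK1, the polo-like kinase of mitosis, had some of the higher WT values here. TOP2A had 3.42 in V2084D_shSTUB1 library 2 and 9.60 and 4.85 in the WT libraries, and PLK1 had 3.97 in V2084D_shSTUB1 library 2 and 8.43 and 6.70 in the WT libraries.

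WEE1, the kinase that restrains CDK1, and BUB3, a checkpoint protein, each had a peak in V2084D_shSTUB1 library 1 and in V2084D library 2. A peak in 3 of the 4 libraries was listed at CCND2, CCND3, CDK4, CCNE1, RRM2 and CDC25B, of which CDC25B alone is a G2/M gene. All 6 but CCNE1 had peaks in both V2084D_shSTUB1 libraries, and CCNE1 had them in both V2084D libraries and in V2084D_shSTUB1 library 2. The V2084D peaks at CCNE1, RRM2 and CDC25B overlapped WT regions, while those at CCND2, CCND3 and CDK4 lay outside them. At CCND2 the V2084D library 1 peak had a −log10 q of only 0.922. At CDK4 the V2084D library 2 summit lay 9230 bp from the gene. RRM2, the small subunit of ribonucleotide reductase, had the highest WT fold of all members. It had 3.59 and 3.56 in the V2084D_shSTUB1 libraries, 4.95 in V2084D library 1, and 13.3 and 7.40 in the WT libraries. In total 14 members had a peak in both V2084D_shSTUB1 libraries (35%), against 25.4% of all genes, and 7 in both V2084D libraries (17.5%), against 24.2% of all genes.

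The 4 members without a peak in both WT libraries were E2F2, CCNA2, BUB1B and MAD2L1. E2F2, an activating E2F factor, had a fold of 4.97 in WT library 1 and no other listed peak. CCNA2, the cyclin A of S phase and G2, had 3.96 in V2084D library 2 and 3.87 in WT library 2. BUB1B, a spindle checkpoint protein, had 2.60 in WT library 2 alone. MAD2L1, also of the spindle checkpoint, had 4.11 in V2084D_shSTUB1 library 1, 4.17 in V2084D library 1 and 5.15 in WT library 1. The summits of the peaks named here lay within 160 bp of a listed start. With CCNA2 counted on the G1/S side, the gap between the classes differed by -1.52 points for V2084D_shSTUB1 minus V2084D.

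**Figure D5:**
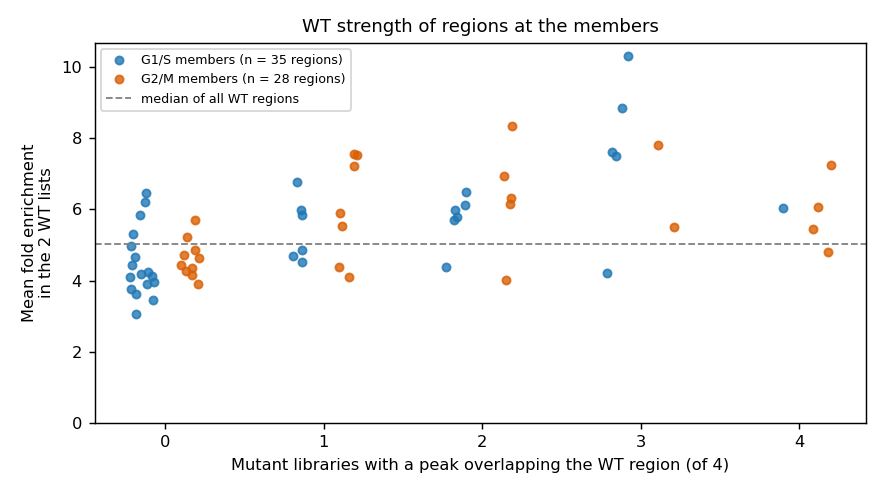
Mean fold enrichment in both WT lists (vertical axis, authors' values) of each of the 63 WT regions at members, by the number of libraries of the mutant protein with an overlapping peak (horizontal axis, points spread sideways for clarity). The dashed line is the median of all WT regions (5.04). The 27 regions with no mutant peak have a median of 4.36, and the 5 covered in all 4 libraries one of 6.03.

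There were 63 WT regions in the members' windows, 35 at G1/S and 28 at G2/M genes, out of 15876 in all. V2084D_shSTUB1 peaks covered 24 (38.1%) and 22 (34.9%) of the 63, against 41.7% and 31.5% of all WT regions. V2084D peaks covered 12 (19.0%) and 18 (28.6%), against 27.7% and 46.8% of all. The members' regions were thus covered below the background by both V2084D libraries and on either side of it by the V2084D_shSTUB1 libraries. No mutant peak overlapped 27 of them (42.9%), against 34.8% of all, and all 4 libraries covered 5 (7.94%), against 13.1%. By class, 17 of 35 G1/S regions (48.6%) and 10 of 28 G2/M regions (35.7%) had no mutant peak. All 4 libraries covered 1 G1/S region (2.86%) and 4 G2/M regions (14.3%). V2084D_shSTUB1 libraries covered 31.4% each of G1/S regions and 46.4% and 39.3% of G2/M regions. V2084D libraries covered 17.1% and 25.7% of G1/S and 21.4% and 32.1% of G2/M regions. Counted by region, the mutant share was thus larger on the G2/M side, the reverse of the order by gene.

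The WT strength of the members' regions did not stand far from that of the rest, with a median mean fold of 5.31 against 5.04 for all WT regions. Among the 36 members, the median WT fold of the leading region was 4.79 at the 8 without a mutant peak (from 4.16 to 6.20), 5.87 at the 22 with a peak in 1 to 3 libraries (from 3.07 to 10.3) and 6.87 at the 6 with a peak in all 4 (from 5.44 to 8.84). These ranges overlap, and the part of WT strength in the patterns was not tested. Of the 63 regions, 19 also lay within 1 kb of another protein-coding gene, and 7 of these were outside the member itself.

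Beside the members, 57 other cell cycle genes were counted, among them CDK inhibitors, further pocket and E2F proteins, subunits of the DREAM and anaphase-promoting complexes and kinetochore proteins. A peak was listed at 41 and 24 of them in the V2084D_shSTUB1 libraries, at 27 and 38 in the V2084D libraries, and at 55 and 52 in the WT libraries. In points above all genes this was 32.0 and 10.7 in the V2084D_shSTUB1 libraries, 18.5 and 20.7 in the V2084D libraries, and 24.6 and 20.0 in the WT libraries. Unlike the members as a whole, these genes stood above the background in both V2084D libraries. They include mitotic genes and were not split by class, so the low V2084D share of G2/M members describes the listed genes and not mitotic genes in general. Among the mitotic genes here, NUF2, KIF23 and ESPL1 had a peak in all 4 libraries of the mutant protein, while NDC80 had a peak in none. Of the 51 with a peak in both WT libraries, 10 had no V2084D peak (19.6%), 8 had no V2084D_shSTUB1 peak (15.7%), 17 had a peak in all 4 libraries of the mutant protein (33.3%) and 3 in none (5.88%). The 17 include CDKN2C, RBBP4 and CDCA8, which lie in the stretch of chromosome 1 between 29 and 56 Mb described above for CDC20. The part of that stretch in these counts was not tested. None of the 51 had the pattern of CDK1, and 3 had the opposite one: CDKN1B, the inhibitor p27, PTTG1, the securin, and RRM2B, a p53-induced subunit of ribonucleotide reductase.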

How the data were processed

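Flag ChIP-seq peak lists of 6 libraries were used, 1 per library, so peaks had been called per library. The submitters' processing notes name MACS2, Bowtie2, Trimmomatic, deepTools, bedtools, Picard and SAMtools, and the build hg38. No version, setting or call control is given in the sources used here. The values given here rest on the deposited peak positions, summit offsets, fold enrichment (a ratio) and −log10 q. The deposited score column was not used.

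Genes came from a RefSeq table (GRCh38.p14, which shares hg38 coordinates on the assembled chromosomes), and all 40 members matched. Gene starts and promoters came from a RefSeq promoter table that holds 32 members; CCND1, CCND2, CCNE2, CDK2, WEE1, AURKA, BUB3 and TTK were placed by their annotated ends. Peaks were counted from 10 kb before to 10 kb after each gene, and by summits within 1 kb of a start. Libraries were compared by two-sided exact permutation tests of group means with Benjamini-Hochberg adjustment over 3 group pairs; lists of genes were described by counts beside all protein-coding genes. The members and lists were chosen with earlier results of these data known. All members are accounted for; values per library are given for members with the CDK1 pattern (peaks in both WT and both V2084D_shSTUB1 libraries and in no V2084D library) or its opposite, for those without peaks in both WT libraries, and for up to 8 each with peaks in all 4 or in no library of the mutant protein, while PLK1, TOP2A and RRM2 were named after their values were seen. Alternatives were summits in the window, windows of 1 kb or around gene ends, −log10 q or fold of at least 5, lists of equal length, each library left out, a replicate block, and CCNA2 with the G1/S genes. The counting was tested on simulated data. Python 3.11.15, numpy 2.4.6, pandas 2.3.3 and matplotlib 3.10.9 were used.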

Additional observations from a re-analysis of the deposited data

How the results depend on the processing

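The excess of WT over V2084D and over V2084D_shSTUB1 libraries in members with a peak kept its direction under every alternative run, in windows, at gene starts and relative to all genes; no comparison of libraries can pass 0.05 here under any of them. Members with a peak in V2084D_shSTUB1 minus V2084D libraries were -1 at a −log10 q of at least 5 and -0.5 at a fold of at least 5, and relative to all genes -5.20 and -2.58 points. The gap between G1/S and G2/M shares was the least stable value. With windows of 1 kb it was -9.34 points for V2084D_shSTUB1 minus V2084D and -0.767 for V2084D_shSTUB1 minus WT. At a −log10 q of at least 5 it was -5.88 for V2084D_shSTUB1 minus V2084D, -15.5 for V2084D minus WT and -21.4 for V2084D_shSTUB1 minus WT. At a fold of at least 5 it was -2.94, -3.58 and -6.52 for the same 3 differences, and with CCNA2 among G1/S genes -1.52 for V2084D_shSTUB1 minus V2084D. Members with a peak in both WT libraries numbered 23 at the q limit, 17 at the fold limit and 13 with lists of equal length, where fewer peaks were counted. Of these, no V2084D peak was listed at 17, 12 and 4 (73.9%, 70.6% and 30.8%, against 62.5%, 56.5% and 17.8% of all genes). A peak in all 4 libraries of the mutant protein was listed at 1, 1 and 3 (4.35%, 5.88% and 23.1%, against 6.72%, 8.11% and 38.1%), and none in any of them at 15, 10 and 2 (65.2%, 58.8% and 15.4%, against 43.8%, 39.0% and 8.15%). The CDK1 pattern was found at 0 members in all 3 settings, and the opposite pattern at 1 with windows of 1 kb. The cause of these shifts was not tested. Leaving out 1 library at a time gave ranges of -28 to -22 (V2084D minus WT), 4 to 10 (V2084D_shSTUB1 minus V2084D) and -20 to -16 (V2084D_shSTUB1 minus WT) for members with a peak, and of 6.39 to 16.6, 1.79 to 8.95 and 11.8 to 22.0 points for the gap. It gave 36 to 38 members with a peak in both WT libraries, 19 to 27 with no V2084D peak, 6 to 9 with a peak in all 4 libraries, 8 to 13 with none (13 without V2084D_shSTUB1 library 1), 3 to 8 with the CDK1 pattern and 0 to 3 with its opposite (3 without V2084D library 1). With a replicate block the values were the same (-25, 7 and -18 members), and the smallest p of that test is 0.5; same-numbered libraries did not deviate together over all genes (correlations of -0.0713 for V2084D_shSTUB1 with V2084D, -0.00236 for V2084D with WT and 0.00506 for V2084D_shSTUB1 with WT), so the numbers do not pair them. Depth is unknown, so a missing peak may be a weak one.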
